A study of Mus musculus with 2 samples.

Results

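The genes described here are the cell-surface receptors by which the gut lining reads fatty acids and other nutrients in its contents. A set of 8 was chosen by function: Ffar1 and Ffar4 (receptors of long-chain fatty acids), Ffar2 and Ffar3 (short-chain fatty acids), Gpr119 (lipid amides and monoacylglycerols), Gpbar1 (bile acids), Casr (calcium and amino acids) and Gpr35. Every probe set whose annotation gave 1 gene symbol, with that symbol in the set, was taken. This found 6 probe sets of 4 genes among 45101 probe sets and 18194 named genes. Ffar2 and Casr had 2 probe sets each, and Ffar4 and Gpr35 had 1 each. No probe set carried Ffar1, Ffar3, Gpr119 or Gpbar1 in the annotation used here, so these 4 receptors were not analysed here.

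The receptors all couple to G proteins. In the intestine they are best known on enteroendocrine cells, scattered hormone-secreting cells of the epithelium, where fatty acids, amino acids or bile acids act on them to promote release of hormones such as cholecystokinin, GIP, GLP-1 and peptide YY. Several are also made outside the epithelium: FFAR4 by fat cells and macrophages, FFAR2 by neutrophils and other leukocytes, CASR by gastric endocrine cells and enteric neurons, and GPR35 by immune cells as well as epithelium. CD36 itself binds long-chain fatty acids at the cell surface.

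Gene expression was measured in the proximal section of the intestine of wild-type (WT) mice and of mice with a germline deletion of Cd36 (CD36KO). Both were on the C57BL/6 background, fed chow freely and kept under a 12-h light-dark cycle; neither age nor sex is given in the sources used here. RNA of 3 animals was pooled per genotype and 1 Affymetrix array was run per pool, so n = 1 per group, no test was possible and no difference below has a replicate error. The tissue was a whole gut segment, in which fewer cells of a type and less RNA per cell cannot be told apart.

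Cd36, the targeted gene, has 3 probe sets, and the CD36KO reading of each was lower than the WT reading, by 2.33-fold to 3.56-fold. The values are on a log2 scale with medians of 4.38 on both arrays. The table has no detection calls, so levels were read against a pair of reference values. One, called the floor, was 4.51, the median over all probe sets of the higher of the WT and CD36KO values. The other was 5.00, the 95th percentile of the same quantity over 81 probe sets of olfactory, vomeronasal and bitter taste receptor genes, taken on the assumption that most of these are silent in gut. A receptor under these values cannot be told from no signal. By the same references 2 of the Cd36 probe sets, at 5.87 and 6.02, still read above background in the CD36KO pool, and the third, at 3.52, did not; whether they lie within the deletion was not analysed here. The RNA of the pools also differed in coverage along the transcript: beta-actin read higher at its 3' than at its 5' control probe set by 2.28 in WT but by 1.34 in CD36KO, and GAPDH by 1.28 and by 0.71.

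All 6 receptor probe sets read higher in the CD36KO pool, as did 47.2% of all probe sets. The 6 belong to 4 genes and are not independent readings. Their differences lay between 0.02 and 1.08 on the log2 scale. The median was 0.30, against -0.01 over all probe sets. The lowest of these differences, at an Ffar2 probe set, turned to -0.0039 under quantile normalization, which left 5 of 6 above 0. Of the 6, that of Ffar4 alone was at least 1.5-fold higher, a count of 1, and the count in the other direction was 0. Over all probe sets the share past 1.5-fold was 3.8% upward and 2.74% downward, and 0.982% were at least 2-fold higher, as Ffar4 was. Of the 6 probe sets, 5 reached the floor on at least 1 array and 4 reached it in WT.

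**Figure D1:**
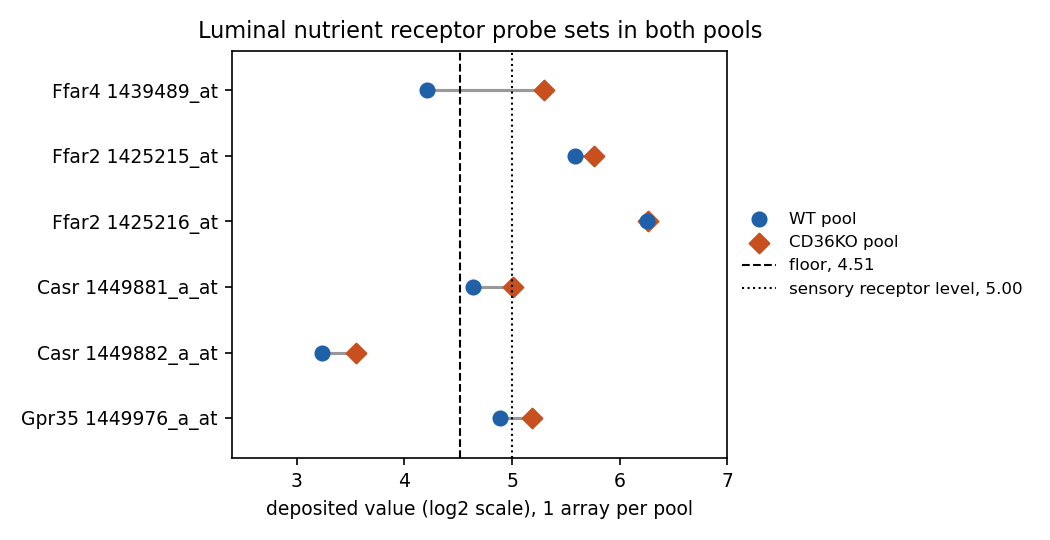
Deposited log2 value (horizontal axis) of each receptor probe set (rows) in the WT pool (circles) and the CD36KO pool (diamonds), 1 array each, with the floor of 4.51 (dashed) and the sensory receptor level of 5.00 (dotted). Ffar4 is the probe set that crosses both lines between the pools, from 4.21 to 5.29; both Ffar2 probe sets lie to the right of the lines in both pools.

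Ffar4, also known as GPR120, responds to long-chain fatty acids and couples mainly to Gq. Its probe set, 1439489_at, read 4.21 in the WT pool and 5.29 in the CD36KO pool, a difference of 1.08 or 2.11-fold. The WT value lay under both reference values, with 47.4% of all probe sets at or below it, and 11.1% of the sensory receptor probe sets read as high or higher. The CD36KO value lay above both, with 61.8% of probe sets at or below it, and 2.47% of the sensory receptor probe sets read as high or higher.

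Few probe sets near the level of Ffar4 had a difference of its size. Ffar4 had the highest difference of the 6 receptor probe sets, so the shares given next describe its size and are no test. Among 6127 other probe sets with a mean within 0.5 of that of Ffar4, 5.5% passed 1.5-fold upward, and 59 (0.963%) had a difference as high or higher. Ffar4 had no second probe set to set beside it. Where a probe set of a gene with several stood in this range of levels and was at least 1.5-fold higher, which was so for 245 probe sets, another probe set of the same gene was also at least 1.5-fold higher for 70 (28.6%), and another had a difference below 0 for 145 (59.2%). Since the WT value is not above background, the fold also depends on how low values are treated: with 16 added to each linear value before taking log2, the difference was 0.68.

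**Figure D2:**
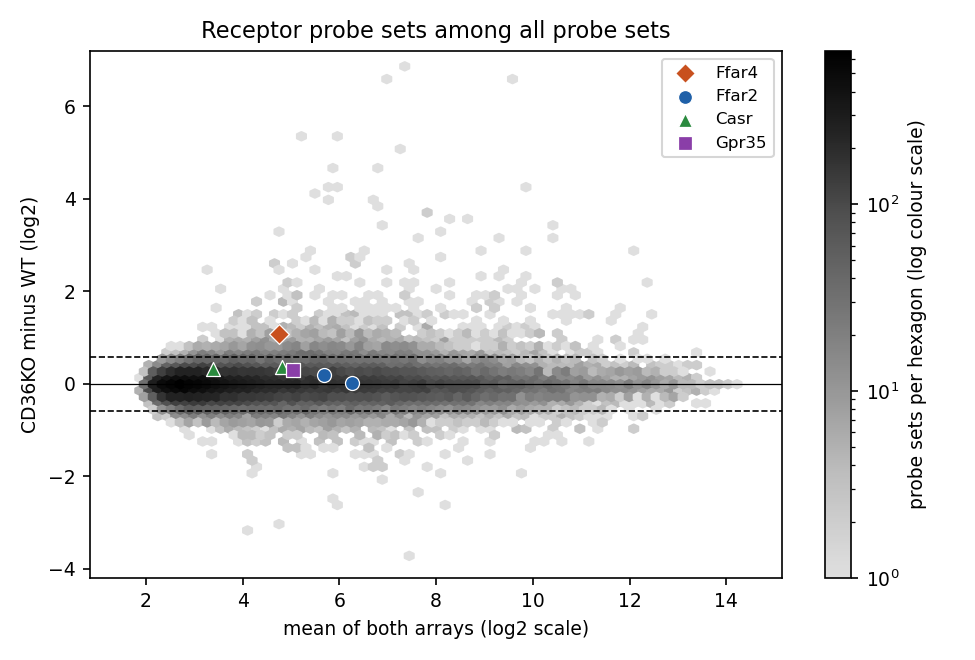
CD36KO minus WT difference (vertical axis, log2) against the mean of both arrays (horizontal axis, log2) for all probe sets (grey hexagons, darker where more probe sets fall, log colour scale) and for the receptors (coloured symbols). Dashed lines mark 1.5-fold; Ffar4, at 1.08, lies past the upper line, and the other 5 receptor probe sets lie between the lines.

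Ffar2, or GPR43, is a receptor of acetate, propionate and butyrate and couples to Gi and Gq. It was the receptor read most clearly above background, and it differed least. Probe set 1425216_at read 6.25 in WT and 6.27 in CD36KO, a difference of 0.02. Probe set 1425215_at read 5.58 and 5.76, a difference of 0.18 or 1.13-fold. Both readings of both probe sets were above 5.00, and 0 of the 81 sensory receptor probe sets read as high. Both probe sets are annotated to the same expressed sequence tag and are therefore no independent readings of Ffar2. Of the probe sets within 0.5 of their mean levels, 49.2% for 1425216_at and 29.4% for 1425215_at had a difference as high or higher.

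Casr encodes the calcium-sensing receptor, which also responds to aromatic amino acids and couples to Gq and Gi. Its probe set 1449881_a_at read 4.64 in WT and 5.00 in CD36KO, a difference of 0.37 or 1.29-fold. Its probe set 1449882_a_at read 3.24 and 3.55, under the floor in both pools, a difference of 0.31. Both differences lay within 1.5-fold. Since the second probe set cannot be told from no signal and both are annotated to 1 transcript record, it is no check on the first. Neither WT value reached the sensory receptor level, which the CD36KO value of 1449881_a_at just passed. With 16 added before log2 the differences were 0.24 and 0.12. At their levels 12.2% and 9.52% of probe sets had a difference as high or higher.

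Gpr35, a receptor for which kynurenic acid, a tryptophan metabolite, is a known agonist, couples to Gi and G13. Probe set 1449976_a_at read 4.89 in WT and 5.18 in CD36KO, a difference of 0.30 or 1.23-fold. The WT value lay between the floor and the sensory receptor level, and the CD36KO value lay above both. Of 5739 probe sets of similar level, 1034 (18%) had a difference as high or higher.

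Other receptors by which gut cells sense nutrients and metabolites were mostly read under the floor. Of 19 listed, 15 were named on the array and 5 reached the floor, of which 0 passed 1.5-fold in either direction; of all genes at or above the floor 5.31% passed it upward and 3.31% downward. The median of the 5 was -0.17, against -0.0059 over all genes at or above the floor. Gpr132 read 4.18 in WT and 4.55 in CD36KO. Tas1r3, the subunit common to the sweet and umami taste receptors, read 4.65 and 4.30, and its partners Tas1r1 and Tas1r2 were under the floor in both pools. P2ry2, a nucleotide receptor, read 4.82 and 5.14, and Lpar1, a lysophosphatidic acid receptor, read 9.14 and 8.85. Sucnr1, the succinate receptor of tuft cells, singled out after its values were seen, read 3.41 and 4.43, both under the floor.

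Of 35 listed genes for the G proteins and effectors through which these receptors signal, 27 reached the floor. Of these 1 passed 1.5-fold upward and 0 downward, beside 5.31% and 3.31% of all genes at or above the floor, and the median difference was 0.17. The gene past 1.5-fold was Adcy8, a calcium-stimulated adenylyl cyclase, at 3.55 in WT and 4.94 in CD36KO. The WT value of Adcy8 was under the floor, and both of its values were under the sensory receptor level of 5.00. The Gq family genes Gnaq and Gna11, which carry the signal of FFAR4 and CASR, read 7.57 in WT and 7.52 in CD36KO (Gnaq; other probe sets differed by -0.12 to 0.85) and 10.98 and 11.13 (Gna11; -0.10 at its other probe set). Gnai2, of the Gi family used by FFAR2 and GPR35, read 10.03 and 10.08, with a difference of 0.34 at its other probe set. Gna13 read 9.62 and 9.56, with differences of -0.02 to 0.55 at its other probe sets. Arrb2, the beta-arrestin bound by activated FFAR4, differed by 0.39, with 0.03 at its other probe set. Gnas (0.54; other probe sets from -0.11 to 0.23) and Prkaca (-0.45; 0.16 at its other probe set) had the next largest absolute differences after Adcy8 among the listed genes at or above the floor.

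Of 15 listed hormones released by enteroendocrine cells, 11 reached the floor. Of these 3 passed 1.5-fold upward and 0 downward, beside 5.31% and 3.31% of all genes at or above the floor. The median difference was -0.29. The 3 higher genes were Pyy (peptide YY), from 5.62 in WT to 7.17 in CD36KO, Gcg (the precursor of GLP-1), from 6.19 to 7.24, and Nts (neurotensin), from 7.68 to 8.63. Cck (cholecystokinin) read 7.80 in WT and 7.23 in CD36KO, and Gip read 10.69 and 10.15, both lower in CD36KO but within 1.5-fold. Secretin, Sct, and somatostatin, Sst, each differed by -0.29. Gast, the hormone of gastric G cells, where CASR is known, was under the floor in both pools, at 3.88 and 3.81.

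General markers of enteroendocrine cells had differences on both sides of 0. Of 25 identity and granule genes, 20 were named and 11 reached the floor, with a median of 0.05. Past 1.5-fold were 1 upward and 1 downward, beside 5.31% and 3.31% of all genes at or above the floor. The summed linear level of the 20 was 2248 in WT and 2060 in CD36KO. Chga and Chgb, the chromogranins of secretory granules, differed by -0.20 and -0.46. Pcsk1, the convertase that releases GLP-1 from its precursor, read 5.19 and 5.37. The gene past 1.5-fold upward was Resp18 (4.46 in WT, 5.15 in CD36KO), and the one downward was Neurog3, the factor that specifies enteroendocrine precursors (5.88 and 5.18, with -0.05 at another probe set).

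**Figure D3:**
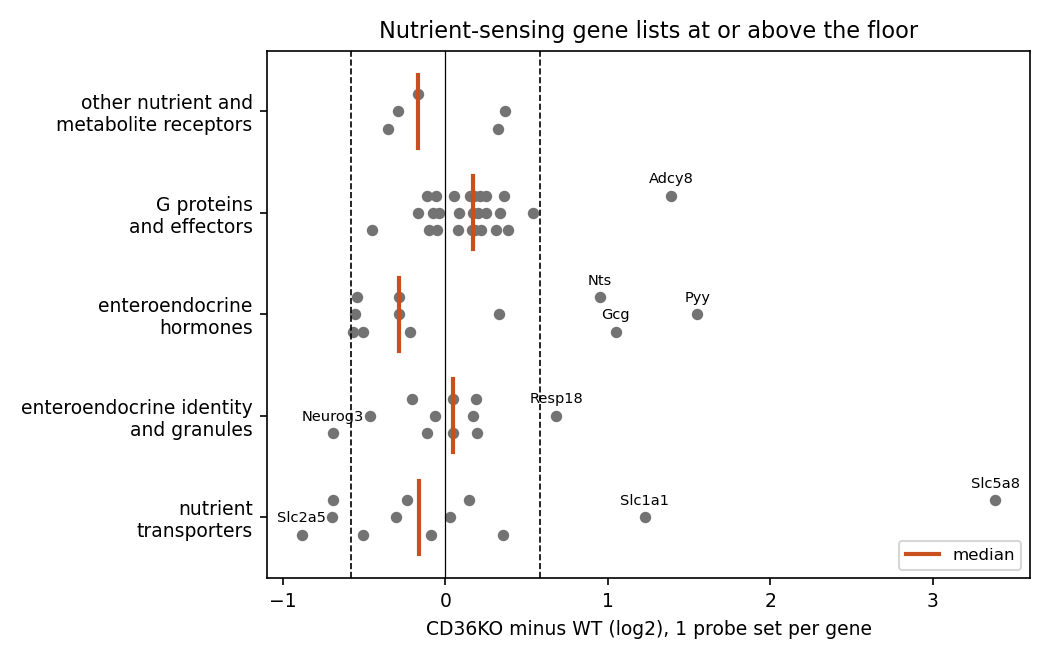
CD36KO minus WT difference (horizontal axis, log2) of each gene at or above the floor (points, 1 probe set per gene, offset vertically for legibility) in 5 lists of nutrient-sensing genes (rows), with the list's median (vertical bar) and 1.5-fold (dashed lines). Pyy, Gcg and Nts stand to the right of the other hormones, whose differences lie below 0 except for that of Tac1, and Slc5a8 has the highest difference of the 5 lists.

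Transporters that take up the same nutrients differed at several genes. All 12 listed reached the floor. Past 1.5-fold were 2 upward and 3 downward, beside 5.31% and 3.31% of all genes at or above the floor, and the median was -0.16. Slc5a8, a sodium-coupled carrier of short-chain fatty acids, read 5.16 in WT and 8.55 in CD36KO, whereas Slc16a1, the proton-coupled carrier of the same acids, read 9.46 and 9.22. Slc1a1, a glutamate transporter, read 7.22 and 8.45, and its other probe sets differed by 1.67 to 2.21. The fructose transporter Slc2a5 (-0.88), the glucose transporter Slc2a2 (-0.70) and the sodium-proton exchanger Slc9a3 (-0.69; 0.19 at another probe set) were the 3 lower genes. The peptide transporter Slc15a1 differed by 0.03.

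Of the bile acid genes around the unmeasured Gpbar1, all 9 listed reached the floor, with a median difference of 1.08. Of these 6 passed 1.5-fold upward and 1 downward, beside 5.31% and 3.31% of all genes at or above the floor. Nr1h4, the nuclear bile acid receptor FXR, read 7.04 in WT and 7.83 in CD36KO. The basolateral bile acid exporter subunits Slc51a and Slc51b were 2.12-fold and 2.13-fold higher. The largest differences of the list were those of Fabp6, the ileal bile acid binding protein (6.25 in WT, 12.92 in CD36KO), Fgf15, an ileal hormone induced by FXR (3.47, under the floor, and 7.58), and Slc10a2, the apical bile acid transporter (2.50, under the floor, and 4.58). Both values of Slc10a2 were under the sensory receptor level of 5.00. Nr0b2, a repressor also induced by FXR, was the lower gene, at 7.06 and 6.26.

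Markers of position along the gut also differed between the pools. Of all genes at or above the floor, 5.31% were at least 1.5-fold higher and 3.31% lower. Of 13 distal small intestine markers, all at or above the floor, 9 were at least 1.5-fold higher and 0 lower, and their summed linear level was 8948 in WT and 23470 in CD36KO. Pyy and Nts of this list are also in the hormone list, and Fabp6, Fgf15, Slc10a2 and Slc51b in the bile acid list. The counts of these lists are therefore not independent. Of 18 proximal markers, 16 reached the floor, 0 passed 1.5-fold upward and 7 downward, and the summed level of the 17 named ones was 41665 in WT and 29783 in CD36KO. Gip, Cck and Sct among them are also in the hormone list, and Slc2a2 in the transporter list. Of the 7 colon markers at or above the floor, 4 were higher (Car1, Car4, Retnlb and B3gnt7) and 1 lower (Aqp8). Car1 read 3.95 in WT and 5.73 in CD36KO, and Aqp8 read 7.85 and 6.07. Hoxb13 and Hoxd13, defining factors of the hindgut end, were under the floor in both pools. The part of segment position in the receptor differences was not tested.

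Markers of the other cell types that make these receptors were compared in the same way. Of all genes at or above the floor, 5.31% were at least 1.5-fold higher and 3.31% lower. Leukocytes make FFAR2 and GPR35, and macrophages among them also make FFAR4. Of 14 named macrophage and dendritic cell markers 13 reached the floor, of which 4 were higher and 0 lower. The 4 higher ones were Cd68, Lyz2, C1qa and C1qc, while Adgre1, Csf1r and Cx3cr1 differed by 0.28, 0.18 and 0.28, and Itgax by -0.12. The summed level of the 14 was 2216 in WT and 3426 in CD36KO. Lyz2, the highest reading of the 14 in both pools at 9.46 and 10.57, weighs most in these sums. Of 14 named neutrophil and eosinophil markers 3 reached the floor and 1 of them was at least 1.5-fold higher, Siglecf (4.76 and 5.70), a marker of eosinophils that tuft cells also make. The summed level of the 14 was 237 in WT and 264 in CD36KO. The calprotectin genes S100a8 and S100a9 were under the floor in both pools. Elane (5.24 in WT, 5.23 in CD36KO) and Ltf (5.06 and 4.88) were above it in both. For fat cells, which make FFAR4 as macrophages do, 8 of 9 named markers reached the floor, 0 passed 1.5-fold upward and 2 downward. The 2 were Pparg (-1.17) and Thrsp (-0.64, with -0.06 to 0.07 at its other probe sets). The summed level of the 9 was 1745 in WT and 1666 in CD36KO, and adiponectin, Adipoq, read 6.67 and 6.62. For enteric neurons and glia, 7 of 12 named markers reached the floor, 1 of them was at least 1.5-fold higher, Gal (6.02 and 7.07), and the summed level was 633 in WT and 761 in CD36KO.

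Marker genes of the neighbouring pancreas and stomach were read as well. Whether tissue of these organs was in the samples was not tested. Of all genes at or above the floor, 5.31% were at least 1.5-fold higher and 3.31% lower. All 12 named pancreas acinar markers were at least 1.5-fold higher, with a summed level of 7645 in WT and 27406 in CD36KO, whereas 2 of 7 named islet markers reached the floor and 0 passed 1.5-fold. Of 7 gastric markers at or above the floor 3 were higher and 2 lower. The higher ones were Gkn1 (5.89 in WT, 9.62 in CD36KO), Gkn2 (6.45 and 10.08) and Tff1 (8.75 and 10.94). The lower ones were Gkn3 (11.09 and 10.33) and Tff2 (12.39 and 11.69). The parietal cell gene Atp4a was under the floor in both pools, while Atp4b read 5.81 and 5.94. Of the markers at or above the floor, 2 of 7 were at least 1.5-fold higher for tuft cells (median 0.36), 1 of 10 for T, B and plasma cells (0.12), 5 of 9 for smooth muscle (0.65) and 7 of 11 for goblet and Paneth cells (1.06). Enterocyte markers, the check of the labelled tissue, were all at or above the floor, with a median of -0.04 and 1 of 9 higher. The part of these cell types, and of the differing RNA coverage, in the receptor values was not tested.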

How the data were processed

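RNA of 3 mice per genotype was pooled, and 100 ng of total RNA per pool was converted to biotin-labelled cRNA for 1 Affymetrix array, per the labels' protocols. The authors deposited 1 table of values on a log2 scale; the log base was read from the values, which reach 14.2. The sources used here give neither the summarization nor the background correction or normalization. Of 45101 probe sets 34958 carried 1 gene symbol, 932 several and 9211 none here. Symbols were checked through Entrez identifiers in the RefSeq gene table of GRCm38.p6, where 34754 were found and 0 symbols changed; list names not current were matched by synonym.

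From the deposited log2 values the WT value was subtracted from the CD36KO value, with no further normalization. For lists, the probe set with the highest mean stood for a gene, and genes whose higher value was under the floor were left out of counts. Summed levels are of linear values over all named list genes, and probe sets differ in affinity. Called means at least 1.5-fold. With 1 array per genotype there is no test, and precision is limited by the number of arrays.

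Named were all receptor probe sets, up to 4 genes at or above the floor with the largest absolute difference in the lists of nutrient sensing, and genes of the pathways a receptor acts through. In the lists of gut position, cell types and other organs, genes were named as examples, by no fixed rule. The members and lists were chosen with earlier results of these data known. The tools were Python 3.11.15 with NumPy 2.4.6, pandas 2.3.3, matplotlib 3.10.9 and statsmodels 0.14.6.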

Additional observations from a re-analysis of the deposited data

How the results depend on the processing

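Subtracting each array's median, quantile normalization and removal of a lowess trend (fraction 0.3) moved the 6 receptor differences by -0.04 to 0.02. Adding 16 to each linear value before log2 moved 3 of them by more than 0.1, to 0.68 for Ffar4 and to 0.24 and 0.12 for Casr, since it damps low values by construction. The count of receptor probe sets at least 1.5-fold higher was 1 under each scaling, at 2-fold (background 0.982%) and with the floor or the sensory receptor level as a filter, which Ffar4 passes through its CD36KO value alone, so that these filters say nothing about its stability. It was 0 with the 75th percentile of 6.60 as the floor, which leaves out all 6. The hormone median was 0.02 with that floor. The mean over probe sets gave 0.10 for Ffar2 and 0.34 for Casr. Of 145 list medians under alternatives, 23 moved by 0.1 or more. Among them, the gastric median ranged from 0.16 to 2.19, and that of enteric neurons and glia from 0.07 to 0.64. The macrophage and dendritic cell median reached 0.80, and that of smooth muscle fell to 0.47. The colon median fell to as low as 0.13, and that of tuft cells ranged from 0.14 to 0.62. That of other nutrient receptors ranged from -0.29 to -0.0031, and that of G proteins from 0.04 to 0.17. The transporter median reached 0.03, that of enteroendocrine identity genes -0.09 and that of islet markers 0.45. No paired analysis was possible because each genotype has 1 array, and leaving out a replicate was not possible for the same reason. Ffar4, Casr and Gpr35 read near background in WT, which limits their folds.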
